A study of Danio rerio with 2 samples.

Results

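The genes described here are the voltage-gated calcium, sodium and potassium channel genes of the zebrafish pituitary, with the other potassium channels and the hyperpolarization-activated channels. Members were taken by symbol from the deposited gene list: every symbol that starts with *cacna*, *cacnb*, *cacng*, *kcn* or *hcn*, or with *scn* and a digit. This gave 182 of 25432 genes, auxiliary subunits included, and a further 13 channel symbols written in capitals are not members. Pituitaries came from *gnrh3*-/- females and from their *gnrh3*+/+ WT sisters, all 3 months old, which had spawned in the week before and were taken 1 hour before lights on. *gnrh3* codes for gonadotropin-releasing hormone 3, the form that zebrafish hypophysiotropic neurons make, and the loss of both alleles is in the whole animal and not in the pituitary alone. For each genotype, 5 pituitaries were pooled, dissociated and made into 1 droplet library of 3' ends, so that the spread between fish or between libraries is not known, no test between genotypes was possible and no p-value is given. The intervals below are 95% intervals that cover counting error only. With 1 UMI of *gnrh3* in the cells of each library, the deleted gene itself did not serve as a check of the labels.

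Endocrine cells of the pituitary are electrically excitable. Sodium and calcium channels open as the membrane depolarizes, and the calcium that enters drives the release of stored hormone, while potassium channels bring the membrane back and set how often a cell fires. Leak and inward rectifier potassium channels hold the resting potential, hyperpolarization-activated (HCN) channels carry a pacemaker current, and releasing hormones of the hypothalamus act in part by opening or closing such channels. The pore is made by an alpha subunit, and the beta, gamma, alpha2delta and other accessory subunits change its traffic and gating.

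The *gnrh3*-/- library held 4794 cells and the WT library 2194 cells, with medians of 5368 and 6961 unique molecular identifiers (UMIs) per cell, and 1 cell barcode was shared by both. The cell types are those that the authors deposited. Of these, 13 are used, and 9 of them have at least 50 cells in each library. Another type's hormone made up over 5% of the UMIs of 3.13% of the *gnrh3*-/- cells and 0.410% of the WT cells, and a doublet caller marked 3.48% and 0.228%. Each hormone gene was highest in a type of its own, with *prl* at 2523 UMIs per 10000 UMIs in *gnrh3*-/- lactotropes and 2339 in WT lactotropes. *smtla* had only 56.0 and 81.3 in somatolactotropes alpha, where 8 hormone genes together had 387 and 389. *fshb* had 207 and 244 in FSH gonadotropes, where the 8 together had 621 and 378. The her6+ cells had *her6* at 9.76 and 5.27 but *plvapa*, listed as a marker of the same cells, at 0 in both libraries.

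Channel transcripts were sparse. In the cells, 20695 member UMIs were counted in the *gnrh3*-/- library and 15230 in the WT library. Of the 182 members, 154 had a UMI in a cell, 28 had none, 43 had 1 to 9 UMIs and 65 had at least 100 over both libraries. A few genes made up most of the signal: the 5 members with the most UMIs held 33.5% of all member UMIs and the top 15 held 59.7%. The 80 members with at least 20 UMIs in the cells of each library are called measured below. The other 74 members with a UMI are counted but given no leading cell type.

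Every family had measured members. The families with the most UMIs were the inward rectifiers (25 members, with 3112 UMIs in *gnrh3*-/- cells and 2112 in WT cells), the voltage-gated potassium alpha subunits of the *kcna* to *kcnd* groups (18 members, 2715 and 2080 UMIs) and the leak potassium channels of the *kcnk* group (20 members, 2400 and 2078 UMIs). In several families 1 gene dominated: *kcnk2a* held 76.7% of the leak channel UMIs, *kcnma1a* 67.0% of those of the calcium- or sodium-activated potassium channels, *scn3b* 62.2% of the sodium beta subunits and *scn1lab* 59.6% of the sodium alpha subunits. The calcium alpha1 subunits were the most evenly spread, with *cacna1ba* in front at 23.0%. Members without any UMI were concentrated in the inward rectifiers, where 9 of 25 had none, and in the gamma subunits, where 5 of 16 had none. All 8 sodium alpha, 6 sodium beta, 6 HCN and 8 *kcnq* genes had at least 1 UMI.

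Thyrotropes had the highest summed channel level of the 9 large types. A level is the number of UMIs of a gene, or here of all members, summed over the cells of a type, for each 10000 UMIs that those cells held in total. UMIs of 3' ends are not scaled by gene length, and capture can differ between genes, so that levels are mainly compared between types within a gene. The summed level was 13.2 (12.7 to 13.8) in *gnrh3*-/- thyrotropes and 14.0 (13.4 to 14.7) in WT thyrotropes. Somatolactotropes alpha followed with 11.1 and 11.8, and corticotropes with 10.7 (10.2 to 11.2) and 13 (12.3 to 13.6). Somatotropes beta had 8.58 and 10.4, lactotropes 8.21 and 9.50, and melanotropes 6.34 and 7.15. The low end was formed by the LH cells, with 5.35 and 4.81, the FSH cells, with 5.21 and 4.89, and somatotropes alpha, with 4.26 and 5.06. The ratio of the highest to the lowest type was 3.10 (2.94 to 3.27) in the *gnrh3*-/- library and 2.92 (2.73 to 3.12) in the WT library. In thyrotropes, 1 gamma subunit gene, *cacng7b*, gave 16.5% of the member UMIs in the *gnrh3*-/- library and 4.65% in the WT library. Whether thyrotropes would still lead in the *gnrh3*-/- library without this gene was not tested.

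**Figure D1:**
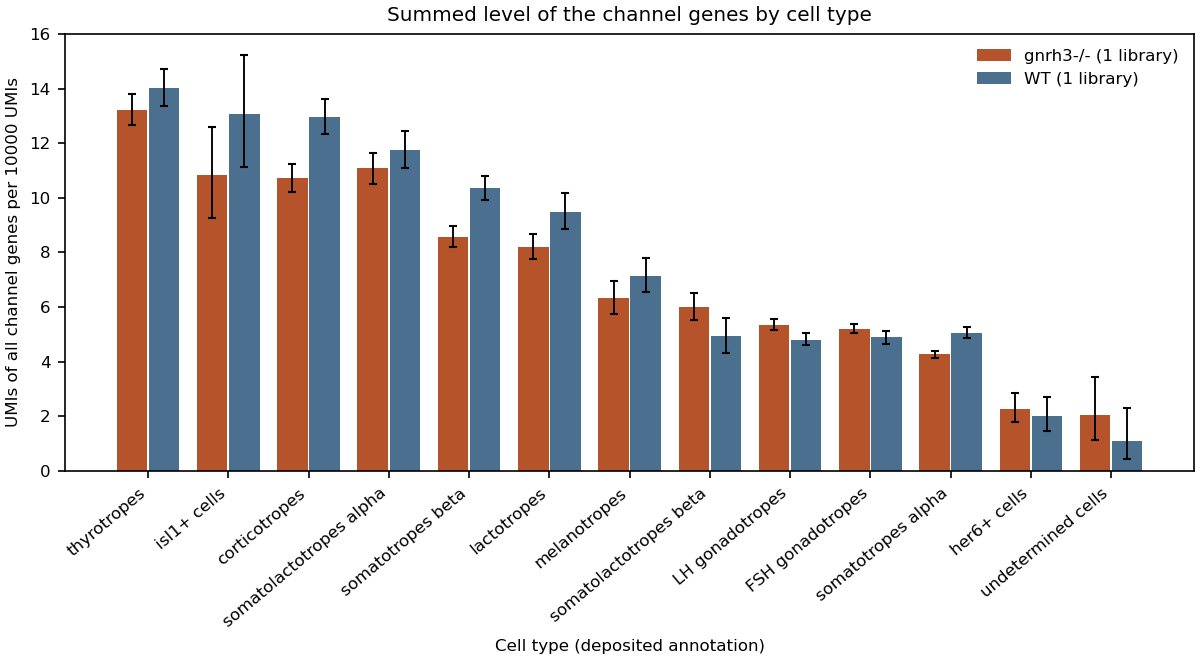
Summed level of the 182 channel genes in each cell type (x axis), in UMIs per 10000 UMIs of all genes (y axis), for the gnrh3-/- library and the WT library, with bars for the 95% counting interval and 1 library per genotype. Thyrotropes lie highest of the 9 large types, at 13.2 in the gnrh3-/- library and 14.0 in the WT library, and the gonadotropes and somatotropes alpha lie between 4.26 and 5.35.

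This order depends on the total that the level is divided by. Hormone genes took 60.4% of the UMIs of *gnrh3*-/- somatotropes alpha and 62.3% of those in WT, against 3.94% and 3.99% in somatolactotropes alpha. With the hormone genes left out of the total, thyrotropes were still highest (18.0 and 18.7), somatotropes alpha moved up to 10.8 and 13.4 and FSH gonadotropes were lowest (6.10 and 5.74). With TMM scaling, somatotropes beta were highest (12 and 12.5) and the highest type stood only 1.89 and 2.09 times over the lowest. Cells thinned to 2000 UMIs each held 2.74 ± 2.0 member UMIs in *gnrh3*-/- thyrotropes and 2.86 ± 1.84 in WT thyrotropes (SD over cells), and 93.2% and 94.0% of these cells held at least 1. Transcripts of the members were also present outside cells, at a level of 7.39 in empty droplets of the *gnrh3*-/- library and 8.84 in those of the WT library, against 6.23 and 6.93 in cells. In each large type, the foreign hormone gene that was lowest against the empty droplets stood at no more than 4.31% of its level there in the *gnrh3*-/- library and 0.741% in the WT library. At those shares, free RNA would add at most 0.0254 and 0.00480 to the level of *scn1lab*, and less to *kcnk2a*, *kcnma1a*, *kcnj19b* and *cacng7b*. For *kcnj19a* it would add at most 0.00436 and 0.000876. These values assume that free RNA in cells has the make-up of the empty droplets, which was not tested.

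The cell types differed in which channels led. Of the 80 measured members, 58 (72.5%) had their highest level in the same type in both libraries, where 52.3% of the 13652 genes measured in the same way did. For 15 (18.8%) the interval of that type also lay above the next type's interval in both libraries, against 10.8% of all measured genes. Corticotropes led for 14 members (17.5%, against 8.71% of all measured genes), thyrotropes for 10 (12.5%, against 8.21%), lactotropes for 8 (10.0%, against 4.78%) and somatolactotropes alpha for 8 (10.0%, against 18.0%). Somatotropes beta led for 5 (6.25%, against 1.48%), melanotropes for 5 (6.25%, against 2.22%), LH gonadotropes for 4 (5.0%, against 4.07%), FSH gonadotropes for 3 (3.75%, against 4.71%) and somatotropes alpha for 1 (1.25%, against 0.198%). These shares describe 2 libraries and were not tested. The remaining 22 measured members had different leading types in the 2 libraries, among them the abundant *kcnj19b*, *scn3b*, *kcnj3a* and *kcnn3*.

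**Figure D2:**
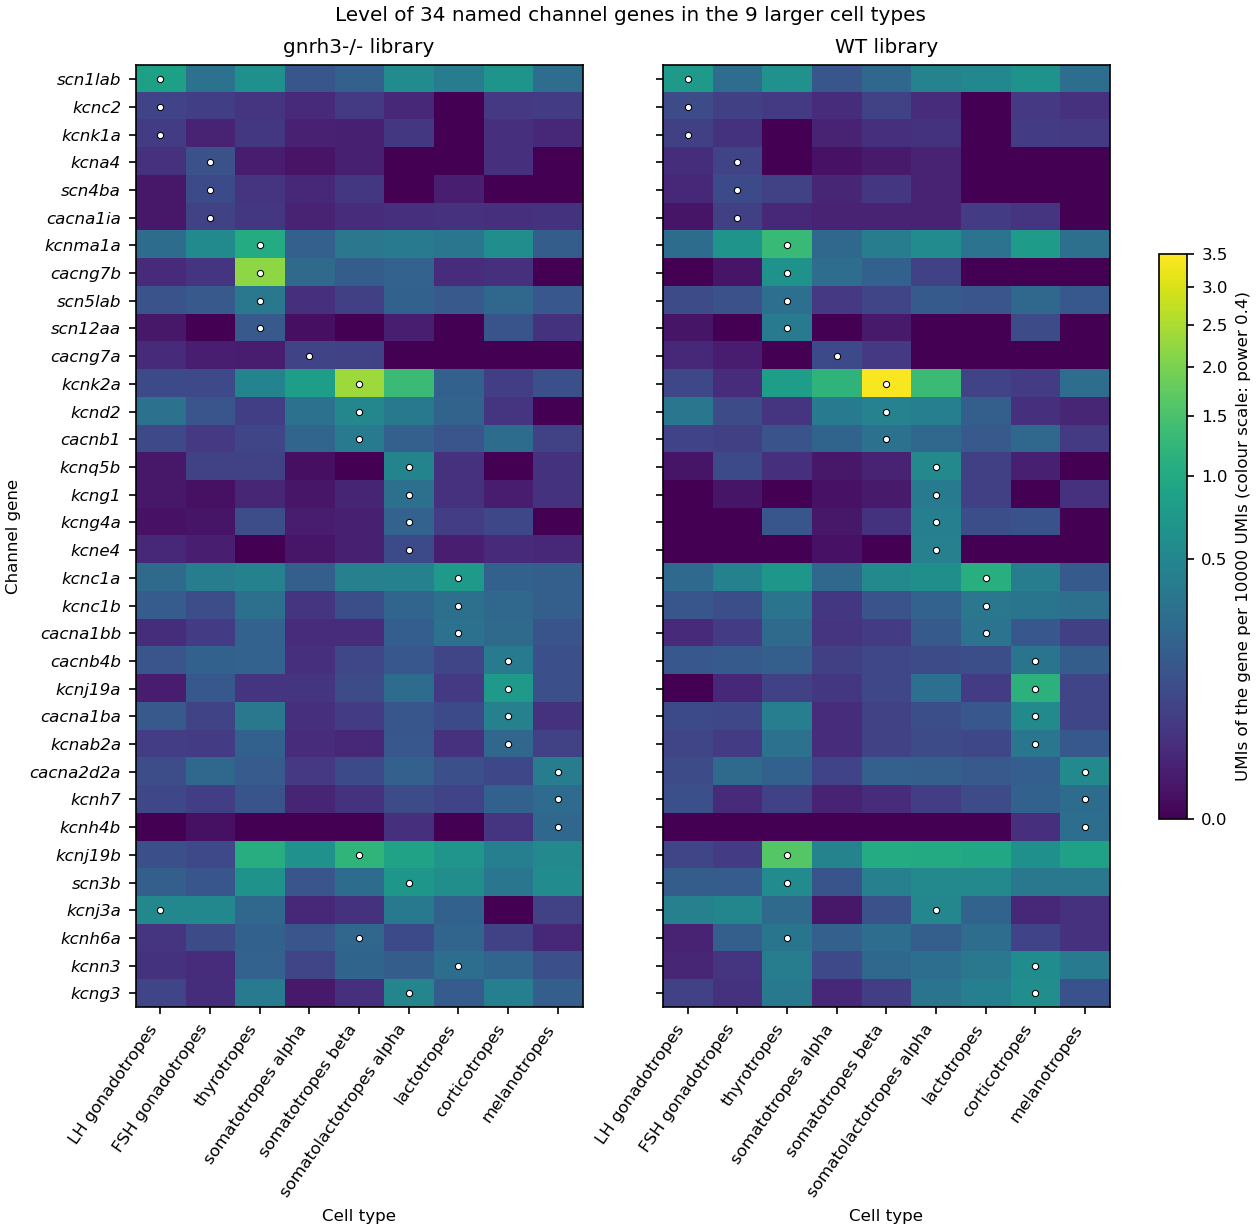
Level of 34 named channel genes (rows) in the 9 large cell types (columns) of the gnrh3-/- library and of the WT library, in UMIs per 10000 UMIs, with a white dot on the highest type of each gene in each library. kcnk2a is brightest in somatotropes beta (2.36 and 3.43), kcnma1a in thyrotropes (1.04 and 1.30) and scn1lab in LH gonadotropes (0.857 and 0.752).

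Among the pore-forming calcium channel subunits, the copies of the N-type channel gene, which couples calcium entry to release at synapses, had different leading types. *cacna1ba* had its highest level in corticotropes, at 0.437 in the *gnrh3*-/- library and 0.550 in the WT library, with thyrotropes next to it at 0.356 and 0.415. *cacna1bb* was highest in lactotropes, at 0.305 and 0.313, with corticotropes next in the *gnrh3*-/- library and thyrotropes next in the WT library, both at 0.244. Neither copy was clear of the next type in both libraries. All 10 measured alpha1 genes kept 1 leading type in both libraries, and as a family they were highest in corticotropes, at 1.31 and 1.33, under each of the totals tried. The T-type subunit *cacna1ia*, which opens at low voltage, was highest in FSH gonadotropes, at 0.0580 and 0.0559, but not clear of the next type in either library. *cacna1ha*, another T-type gene that was chosen after its values were seen, was highest in lactotropes (0.159 and 0.224), clear of the next type in both libraries.

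The auxiliary calcium channel subunits were spread over other types. *cacnb1*, a beta subunit that brings the channel to the membrane, was highest in somatotropes beta (0.386 and 0.294), close to corticotropes (0.264 and 0.228), and its leading type changed when the hormone genes were left out or with TMM. *cacnb4b* was highest in corticotropes, at 0.373 and 0.322, and clear of the next type, thyrotropes (0.197 and 0.179), in the *gnrh3*-/- library only. The alpha2delta gene *cacna2d2a* was highest in melanotropes, at 0.401 and 0.551. It was clear of the next type, the FSH cells (0.232 and 0.249), in the WT library only, and the LH cells had 0.0950 and 0.0893.

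Of the 6 measured gamma subunit genes, *cacng7b* and *cacng2b* were clear of the next type in both libraries, and the other 4 were not. The *cacng2*, *cacng3*, *cacng7* and *cacng8* group is known from mammals mainly for binding AMPA-type glutamate receptors. *cacng7b* had a level of 2.19 (1.96 to 2.43) in *gnrh3*-/- thyrotropes and 0.652 (0.517 to 0.811) in WT thyrotropes. Somatotropes alpha were next, at 0.249 and 0.270, and gonadotropes, lactotropes, corticotropes and melanotropes were at 0.0304 or less in the *gnrh3*-/- library, and at or near 0 in the WT library. Thyrotropes led for *cacng7b* in both libraries under 8 of 9 alternatives, all but TMM. Its copy *cacng7a* was highest in somatotropes alpha (0.0664 and 0.0854), with overlapping intervals in somatotropes beta (0.0575 and 0.0392). *cacng2b*, chosen after its values were seen, was also clear of the next type in thyrotropes (0.312 and 0.277).

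Sodium channels were led by *scn1lab*, an alpha subunit of the Nav1.1 kind, which had 2011 UMIs in all. Its level in LH gonadotropes was 0.857 (0.780 to 0.940) in the *gnrh3*-/- library and 0.752 (0.667 to 0.844) in the WT library. It was widely present: corticotropes had 0.675 and 0.668 and thyrotropes 0.629 and 0.635, and the interval of corticotropes overlapped that of LH gonadotropes in both libraries, while somatotropes alpha had 0.129 in both. *scn1lab* was the most abundant member in LH gonadotropes, with 16.0% and 15.6% of their member UMIs. The alpha subunits *scn5lab* (0.356 and 0.285) and *scn12aa* (0.146 and 0.375) were highest in thyrotropes. Corticotropes were next, and their intervals overlapped for *scn5lab* in both libraries (0.225 and 0.228) and for *scn12aa* in the *gnrh3*-/- library (0.122). Of the beta subunits, which anchor and tune the pore, *scn3b* had no single leading type, at 0.708 and 0.529 in somatolactotropes alpha and 0.655 and 0.570 in thyrotropes. *scn4ba* was highest in FSH gonadotropes, at 0.0828 and 0.0838, but not clear of the next type in either library.

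Of the HCN genes, *hcn5*, chosen after its values were seen, was found in corticotropes, at 0.174 in the *gnrh3*-/- library and 0.267 in the WT library. It was at 0 in the melanotropes of both libraries, where 3 UMIs would be a level of 0.0445 and 0.0413. Among the small types, isl1+ cells had 0.195 and 0.481, from 3 and 6 UMIs, with intervals that overlapped those of corticotropes.

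Voltage-gated potassium channels of the fast Kv3 kind, which let cells repolarize quickly, were led by *kcnc1a*. Its level in lactotropes was 0.742 (0.608 to 0.896) in the *gnrh3*-/- library and 1.09 (0.880 to 1.32) in the WT library, clear of all other large types. Its copy *kcnc1b* was also highest in lactotropes (0.291 and 0.347), but thyrotropes (0.286 and 0.318) and corticotropes (0.231 and 0.330) had intervals that overlapped its own in both libraries, and its leading type was kept under 5 of 9 alternatives. *kcnc2* was highest in LH gonadotropes, at 0.0646 and 0.0893, but FSH gonadotropes were close, at 0.0511 and 0.0559. The A-type channels, which inactivate fast and delay firing, had different leading types. *kcnd2* was highest in somatotropes beta (0.509 and 0.461), with overlapping intervals in somatolactotropes alpha (0.361 and 0.431) in both libraries. It was 0.302 and 0.336 in LH gonadotropes, and another type was in front under 3 of 9 alternatives. *kcna4* was highest in FSH gonadotropes (0.106 and 0.0670), which held 77.0% and 68.6% of its UMIs in the 9 types. Another A-type gene, *kcnd3*, was chosen after its values were seen and was highest in corticotropes (0.366 and 0.487), with 0 UMIs in melanotropes of both libraries.

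Somatolactotropes alpha stood out for some genes of modifier and slow potassium channels. *kcnq5b*, of the family that carries the M-current, had a level of 0.474 and 0.529 there, 8.29 times the next type in the *gnrh3*-/- library and 6.31 times in the WT library. *kcng1*, a silent subunit that forms no channel alone and modifies *kcnb* channels, had 0.286 and 0.372, which was 9.63 and 6.65 times the next type. A related silent subunit, *kcng4a*, had 0.196 and 0.431, clear of the next type, thyrotropes (0.0954 and 0.130), in the WT library only. *kcng3* had no single leading type. In the *gnrh3*-/- library it was highest in somatolactotropes alpha (0.489), followed by corticotropes (0.424). In the WT library it was highest in corticotropes (0.590), and lactotropes (0.425) and thyrotropes also stood above somatolactotropes alpha (0.323). As sums, both the *kcnq* genes, at 0.632 and 0.568, and the silent subunits, at 0.971 and 1.13, were highest in somatolactotropes alpha under each total tried. Most of the *kcnq* sum there was *kcnq5b*.

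As a family, the *kcnh* channels of the ether-a-go-go group were highest in melanotropes, at 0.653 and 0.606, under each total tried. *kcnh4b* was nearly restricted to them, with a level of 0.223 in the *gnrh3*-/- library and 0.276 in the WT library, against 0.0321 and 0.0236 in corticotropes and 0 in most other types. *kcnh7*, of the ERG kind, was highest in melanotropes (0.252 and 0.262) but close to corticotropes (0.186 and 0.189). *kcnh6a*, the ERG gene that repolarizes the zebrafish heart, was low in LH gonadotropes (0.0323 and 0.0105) and higher in thyrotropes (0.191 and 0.326). It held 51.5% of the UMIs of the *kcnh* family but went against the family sum. Of the large types it was lowest in melanotropes in the *gnrh3*-/- library (0.0148), and in the WT library only LH gonadotropes were lower than melanotropes.

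Inward rectifiers were led by *kcnj19b*, the member with the most UMIs after *kcnk2a*. It was high in many types and its order was not stable: somatotropes beta had 1.22 in the *gnrh3*-/- library and 1.04 in the WT library, and thyrotropes had 1.07 and 1.63. It was low in the gonadotropes: the LH cells had 0.104 and 0.0683 and the FSH cells 0.0815 and 0.0447. *kcnj3a*, a subunit of the channels that G proteins open, had another pattern. Its level was 0.526 and 0.439 in the LH cells, 0.520 and 0.497 in the FSH cells and 0.361 and 0.509 in somatolactotropes alpha, against 0.0158 and 0.00380 in somatotropes alpha and 0 and 0.0157 in corticotropes.

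The leak channel *kcnk2a*, whose mammalian counterpart is opened by stretch and lipids, was the most abundant member, with 3435 UMIs. In somatotropes beta its level was 2.36 (2.17 to 2.56) in the *gnrh3*-/- library and 3.43 (3.18 to 3.69) in the WT library. Somatolactotropes alpha had 1.34 and 1.35, somatotropes alpha 0.827 and 1.20, and corticotropes 0.0514 and 0.0472. *kcnk2a* alone gave 27.5% of the member UMIs of *gnrh3*-/- somatotropes beta and 33.1% of those in WT. A UMI of it was found in 63.7% and 83.9% of somatotropes beta, and after thinning to 2000 UMIs in 37.5% (32.7 to 42.5) and 52.8% (46.4 to 59.1). In her6+ cells, whose median depth was 3520 and 4774 UMIs against 5367 and 7321 in somatotropes beta, the shares were 4.69% and 5.41% before thinning, and 1 of 50 and 1 of 33 cells after it. *kcnk1a*, another leak channel gene, was highest in LH gonadotropes (0.0456 and 0.0552). It was close in thyrotropes of the *gnrh3*-/- library (0.0381) and corticotropes of the WT library (0.0472), and its leading type changed without the hormone genes.

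Of the potassium channels that calcium opens, the big-conductance channel gene *kcnma1a* was highest in thyrotropes, at 1.04 (0.883 to 1.21) in the *gnrh3*-/- library and 1.30 (1.10 to 1.51) in the WT library. It was the most abundant member in FSH gonadotropes, at 0.558 (0.505 to 0.615) and 0.670 (0.588 to 0.761), with 10.7% and 13.7% of their member UMIs. *kcnn3*, of the small-conductance kind, was at 0.277 and 0.358 in lactotropes and 0.212 and 0.582 in corticotropes. Among the accessory subunits, *kcnab2a* was highest in corticotropes (0.219 and 0.338), with overlapping intervals in thyrotropes (0.191 and 0.301). *kcne4* had its highest level of all types in the small type of somatolactotropes beta (1.38 and 0.462).

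The 2 kinds of gonadotropes had most of their top 5 members in common, but most of these were not at a like level. *scn1lab*, *kcnj3a*, *kcnma1a* and *kcnc1a* were among the top 5 of both in each library. Of these, *scn1lab* was higher in LH gonadotropes, *kcnma1a* and *kcnc1a* were lower, and only *kcnj3a* did not differ beyond counting error. This pair of types, and the pairs of somatotropes and of POMC cells below, were chosen after the values were seen. Of 41 members with at least 20 UMIs over both gonadotrope types in each library, 5 were higher in LH gonadotropes, with an interval above 0 in both libraries (12.2%, against 14.9% of all genes), and 11 were lower (26.8%, against 13.4%), while 25 did neither. The 5 were *scn1lab*, *kcnd2*, *cacna2d1a*, *kcnj3b* and *kcnj2a*. The log2 ratio of LH over FSH gonadotropes was 1.49 and 1.47 for *scn1lab*, 1.28 and 1.96 for *kcnd2*, and 2.06 and 2.23 for the alpha2delta gene *cacna2d1a*, in the *gnrh3*-/- and the WT library. On the FSH side, the log2 ratio was -1.11 and -1.37 for *kcnma1a*, -2.0 and -1.67 for *kcna4* and -1.29 and -1.48 for *cacna2d2a*. For *kcnc1a* it was -0.73 (-1.03 to -0.42) and -0.88 (-1.26 to -0.50). *scn4ba*, *cacna1ia* and *kcnq5b* had 1 to 6 UMIs in LH gonadotropes of a library, so that their ratios are wide: -4.45 (-7.52 to -2.53) and -2.41 (-3.97 to -1.12) for *scn4ba*, and -3.93 (-7.02 to -1.99) and -4.41 (-9.78 to -1.77) for *cacna1ia*. *kcnj3a* did not differ beyond counting error, at 0.02 (-0.21 to 0.24) and -0.18 (-0.49 to 0.13). Without the hormone genes in the total and with TMM, the same 5 members were higher and 10 of the 11 lower, with *cacna1bb* lost. Of all genes, 16.8% were higher and 11.8% lower without the hormone genes, and 14.5% and 13.7% with TMM.

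**Figure D3:**
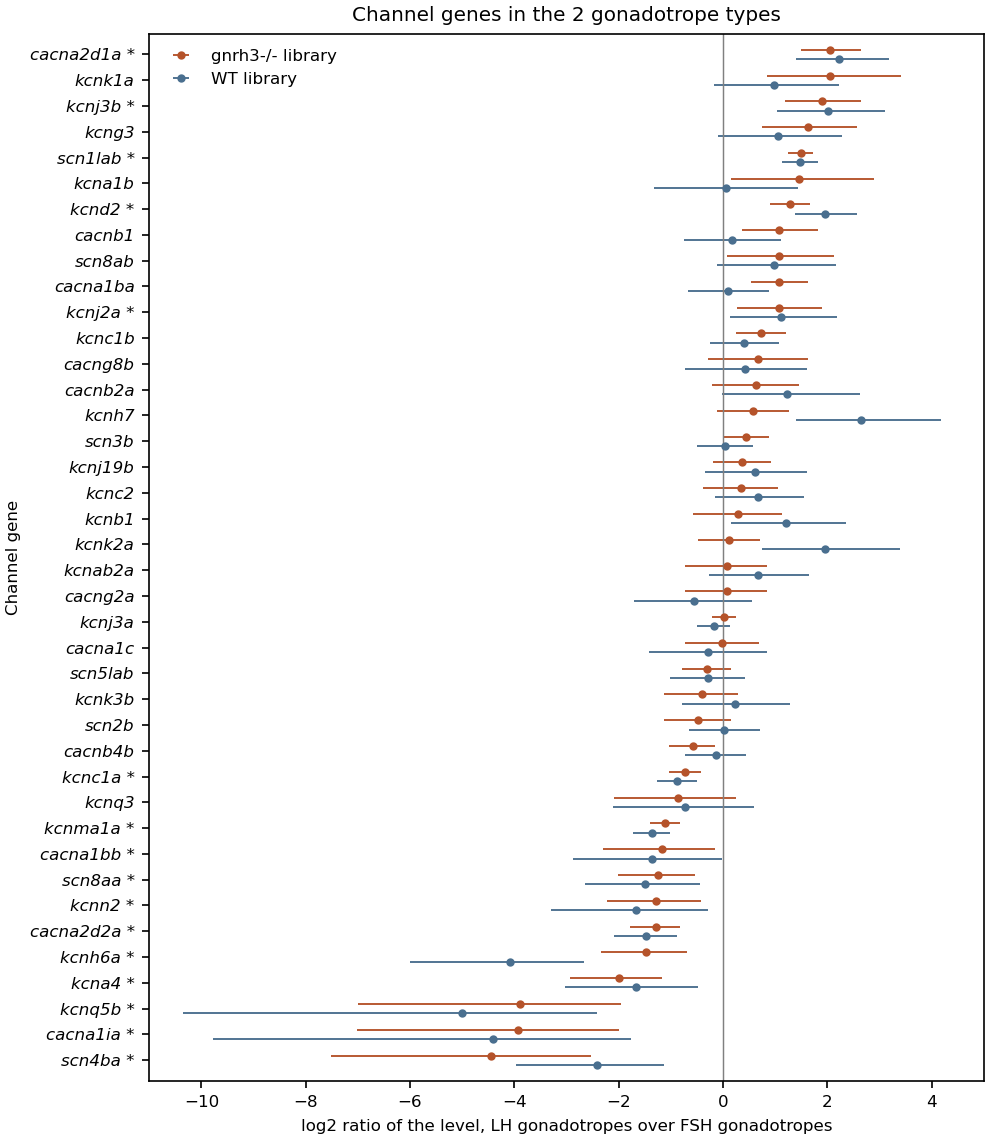
log2 ratio of the level in LH gonadotropes over that in FSH gonadotropes (x axis) for 40 of the 41 channel genes with enough UMIs (y axis), in the gnrh3-/- library and in the WT library, with bars for the 95% counting interval and an asterisk where the interval lies on the same side of 0 in both libraries. scn1lab lies at 1.49 and 1.47 and kcnma1a at -1.11 and -1.37.

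Corticotropes and melanotropes, which both make the POMC precursor, both held *kcnh7* but differed in many other channels. Of 24 members with enough UMIs, 13 were higher in corticotropes in both libraries (54.2%, against 24.7% of all genes) and 2 were lower (8.33%, against 5.37%). *kcnj19a* had a log2 ratio of corticotropes over melanotropes of 2.86 (1.77 to 4.20) in the *gnrh3*-/- library and 4.08 (2.82 to 5.72) in the WT library. For *cacna1ba* it was 3.88 (1.97 to 6.95) and 3.00 (1.71 to 4.66), and for *kcnma1a* 1.86 and 1.46. The 2 genes on the melanotrope side were *cacna2d2a*, at -2.38 and -1.67, and *kcnh4b*, at -2.79 and -3.55. Without the hormone genes in the total 11 members were higher and 3 lower (14.9% and 9.88% of all genes), and with TMM 12 were higher and 2 lower (18.3% and 7.44%).

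Between the somatotropes, the count rested on the scaling. Of 37 members, 13 were higher in somatotropes beta than in somatotropes alpha in both libraries (35.1%, against 40.6% of all genes) and 1, *cacng7b*, was lower (2.70%, against 0.319%). Without the hormone genes in the total 6 were higher and 2 lower (9.29% and 4.85% of all genes), and with TMM 1 was higher and 3 lower (4.48% and 10.5%). *kcnk2a* was the member that was higher under all of them. With the total of all genes its log2 ratio was 1.51 (1.35 to 1.67) in the *gnrh3*-/- library and 1.52 (1.36 to 1.68) in the WT library. A change of scaling moves all members of a pair of types alike, so its ratio was smaller under the other scalings. The median log2 ratio of the members was 0.87 and 1.02 with the total of all genes, where the median over all genes was 0.72 and 0.78. It was 0.32 and 0.41 without the hormone genes (all genes 0.17 and 0.17) and 0.05 and 0.14 with TMM (all genes -0.09 and -0.10).

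Leading types were also compared within pairs of duplicated channel genes. The list holds 53 pairs whose symbols differ only in a final a or b, and in 15 of them both copies were measured. In 11 of these each copy had 1 leading type in both libraries: it was the same for 2 pairs, *kcnc1a* with *kcnc1b* and *scn1ba* with *scn1bb*, all in lactotropes, and different for 9. The same type led for 18.2% of these pairs of channel genes, against 22.7% of 396 such pairs among all genes. *scn1lab* led in LH gonadotropes and *scn1laa* in melanotropes, *cacna1ba* in corticotropes and *cacna1bb* in lactotropes, *cacng7b* in thyrotropes and *cacng7a* in somatotropes alpha. In none of the 9 pairs that differed were both copies clear of the next type in both libraries. Of their genes only *cacng2b*, *cacna1ha* and *cacng7b* were clear, so a different leading type need not go beyond counting error. The copies also differed in amount, with 2617 UMIs of *kcnj19b* and 575 of *kcnj19a*, and 2011 of *scn1lab* and 141 of *scn1laa*. *kcnj19a* had its highest level in corticotropes, at 0.752 (0.622 to 0.901) in the *gnrh3*-/- library and 1.16 (0.983 to 1.37) in the WT library, where *kcnj19b* was at 0.424 and 0.629. In 13 pairs only 1 copy had any UMI. Near-identical copies can share reads, and the effect of such reads on the counts of each copy was not tested. The count of 2 pairs alike was not stable, and it was 0 or 1 under 6 other settings.

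**Figure D4:**
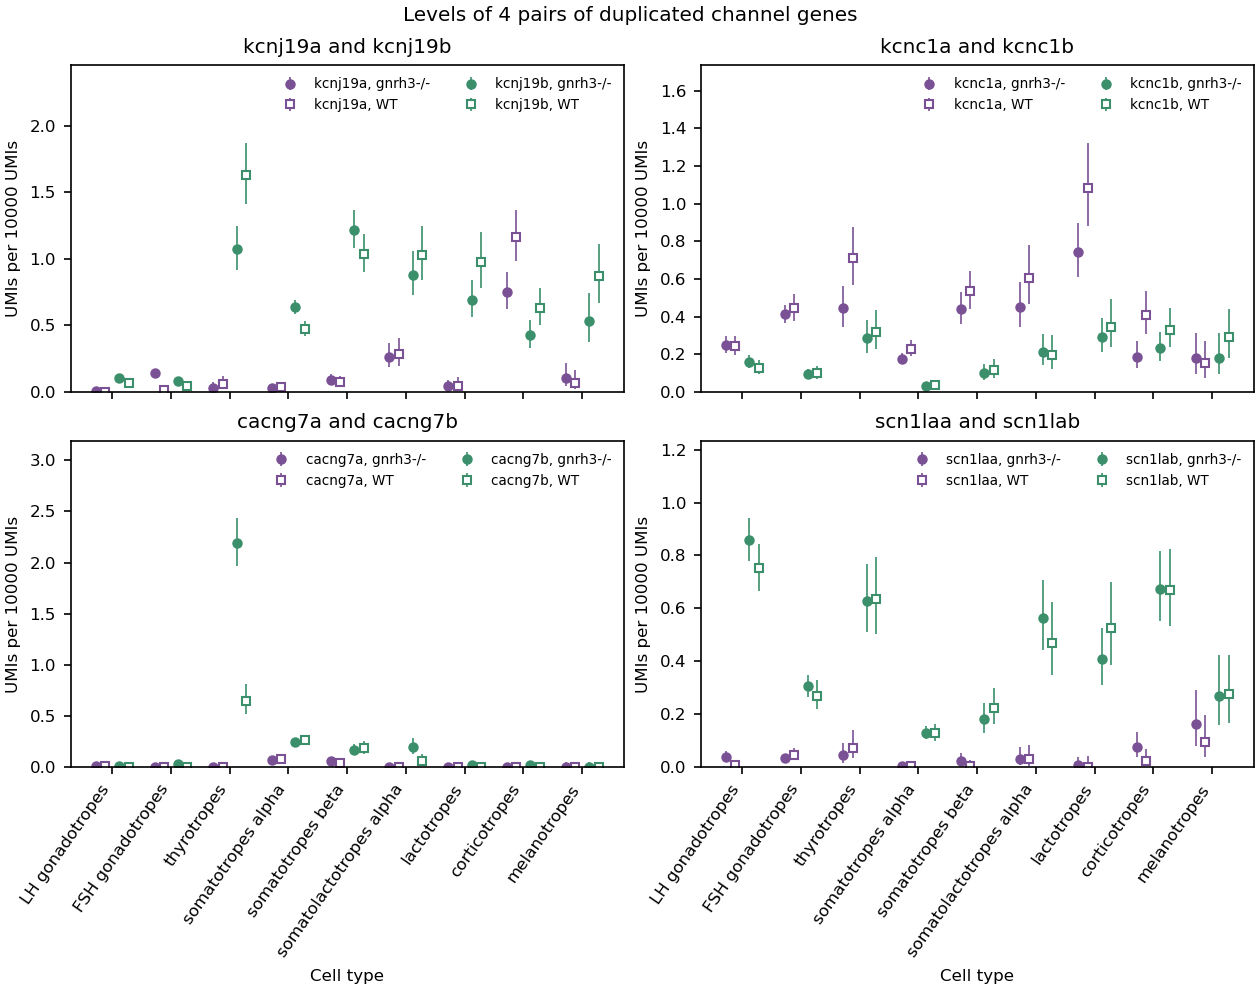
Levels of 4 pairs of duplicated channel genes, 1 pair per panel, in the 9 large cell types (x axis), in UMIs per 10000 UMIs (y axis), with filled points for the gnrh3-/- library, open points for the WT library and bars for the 95% counting interval. kcnj19a peaks in corticotropes (0.752 and 1.16) where kcnj19b is at 0.424 and 0.629, and both kcnc1 copies are highest in lactotropes.

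The small types, which had fewer than 50 cells in a library, were looked at after the values were seen. Of all 13 types, the highest level in both libraries was in isl1+ cells for 6 measured members, in her6+ cells for 1, in somatolactotropes beta for 1 and in undetermined cells for 0. The share of all measured genes that were highest in these types is not given, so the counts are not read as a trait of channel genes. In isl1+ cells 3 UMIs would be a level of 0.195 in the *gnrh3*-/- library and 0.241 in the WT library. In isl1+ cells *kcnh6a* had its highest level of all types (1.04 and 0.722, from 16 and 9 UMIs), as had *scn5lab* (0.843 and 1.04). Thyrotropes were next, and their intervals overlapped, for *kcnh6a* in the WT library (0.326) and for *scn5lab* in the *gnrh3*-/- library (0.356). The inward rectifier *kcnj2a* was at 0.519 and 0.642 there, from 8 UMIs in each library, with an interval above that of the next type in both. In her6+ cells, which had the low summed level of 2.27 and 2.03, the leak channel *kcnk5b* was at 0.478 and 0.360, from 16 and 8 UMIs, clear of the next type. *kcne4* in somatolactotropes beta rested on 133 UMIs in the *gnrh3*-/- library and 21 in the WT library, where somatolactotropes alpha were close, at 0.441. In those WT somatolactotropes alpha, however, 1 cell held 84.4% of the 45 UMIs of *kcne4*.

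Between genotypes, few channel genes differed by 2-fold. A member entered in a type where the libraries together held at least 50 of its UMIs, with 4 or more from each one, and this gave 164 combinations of 53 members and 9 types. Of these, 4 were at least 2-fold higher in the *gnrh3*-/- library (2.44%, against 1.32% of all genes) and 9 at least 2-fold lower (5.49%, against 1.8% of all genes). The lower combination with the most UMIs, *kcnn3* in corticotropes, had 33 in the *gnrh3*-/- library and 74 in the WT library. All 9 thus fell short of the alternative minimum of 200 UMIs over both libraries. All genes were not matched to the members by UMI count, so these shares, and those by type, are not read as a trait of channel genes. The median log2 ratio was -0.13 over the members and -0.05 over all genes. By type, the members past 2-fold were 2 of 30 in FSH gonadotropes, both higher (against 1.83% of all genes higher there and 0.8% lower), and 0 of 24 in LH gonadotropes (1.94% higher and 0.702% lower). In thyrotropes 1 of 22 was higher and 2 were lower (1.46% and 2.88% of all genes), and in lactotropes 1 of 11 was higher and 1 lower (0.812% and 3.02%). Somatotropes alpha had 1 of 23 lower (0.878% higher and 1.58% lower among all genes), somatotropes beta 1 of 13 (0.882% and 2.77%), somatolactotropes alpha 2 of 15 (0.826% and 1.09%) and corticotropes 2 of 22 (1.3% and 3.52%), with 0 higher. Melanotropes had 0 of 4 (1.35% and 1.51%). With 1 library per genotype, a difference between the genotypes and one between the libraries cannot be told apart.

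*kcnj19a* in FSH gonadotropes had the largest ratio. It had 100 UMIs in 91 of 794 *gnrh3*-/- cells and 5 UMIs in 4 of 231 WT cells, a level of 0.138 (0.112 to 0.168) against 0.0140 (0.00453 to 0.0326). The log2 ratio was 3.31 (2.03 to 4.96), and it lay between 3.30 and 4.05 under all 9 alternatives that gave a value. After thinning to 2000 UMIs, 3.5% (2.32 to 5.05) of the *gnrh3*-/- cells and 0 of 230 WT cells, which allows up to 1.59%, held a UMI. No more than 2 UMIs came from 1 cell, and 11.0% of the *gnrh3*-/- UMIs lay in cells that also carried the hormone of another type. LH gonadotropes had 3 UMIs of *kcnj19a* in the *gnrh3*-/- library and 0 in the WT library. In corticotropes, its leading type, the log2 ratio was -0.63 (-0.99 to -0.27).

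*cacng7b* in thyrotropes was at 2.19 in the *gnrh3*-/- library and 0.652 in the WT library, a log2 ratio of 1.75 (1.39 to 2.12). A UMI was found in 164 of 410 and 50 of 205 cells, and in 25.4% (20.9 to 30.2) and 10.6% (6.65 to 15.7) after thinning. In the *gnrh3*-/- library 13 cells with 5 or more UMIs held 27.6% of the UMIs, and without such cells the log2 ratio was 1.56. In somatotropes alpha, where *cacng7b* was next highest, the log2 ratio was -0.12 (-0.43 to 0.20).

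*kcnk2a* in FSH gonadotropes had 57 UMIs in the *gnrh3*-/- library and 7 in the WT library, a log2 ratio of 2.01 (0.87 to 3.39). Of the *gnrh3*-/- UMIs, 66.7% lay in cells with the hormone of another type and 57.9% in cells called as doublets. Without the cells with another hormone the log2 ratio was 1.09, and without the doublets it was 0.90, below 2-fold. The log2 ratio of *kcnk2a* was -0.54 (-0.70 to -0.38) in somatotropes beta, -0.53 (-0.69 to -0.38) in somatotropes alpha and -0.77 (-1.22 to -0.33) in thyrotropes, while in somatolactotropes alpha it was -0.01 (-0.34 to 0.32).

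Among the 9 lower combinations, *kcnn3* had 33 UMIs in *gnrh3*-/- corticotropes and 74 in WT corticotropes, a level of 0.212 against 0.582 and a log2 ratio of -1.46 (-2.09 to -0.84), and in thyrotropes its log2 ratio was -1.02 (-1.72 to -0.34). *scn12aa* in thyrotropes had a level of 0.146 against 0.375, a log2 ratio of -1.36 (-2.15 to -0.61). The log2 ratio was -1.42 for *kcng3* in lactotropes, -1.13 for *kcnc1a* in corticotropes, -1.14 for *kcng4a* in somatolactotropes alpha, -1.14 for *cacna2d2a* in somatotropes beta and -1.09 for *cacnb4b* in somatotropes alpha. *kcnn3* in corticotropes, *scn12aa*, *kcng3* and *kcnc1a* stayed past 2-fold under all 9 alternatives. *kcne4* in somatolactotropes alpha, at -2.41 (-3.51 to -1.44), rested on 1 cell in each library, which held 63.6% of the *gnrh3*-/- UMIs and 84.4% of the WT UMIs, and without these cells the log2 ratio was -1.20.

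**Figure D5:**
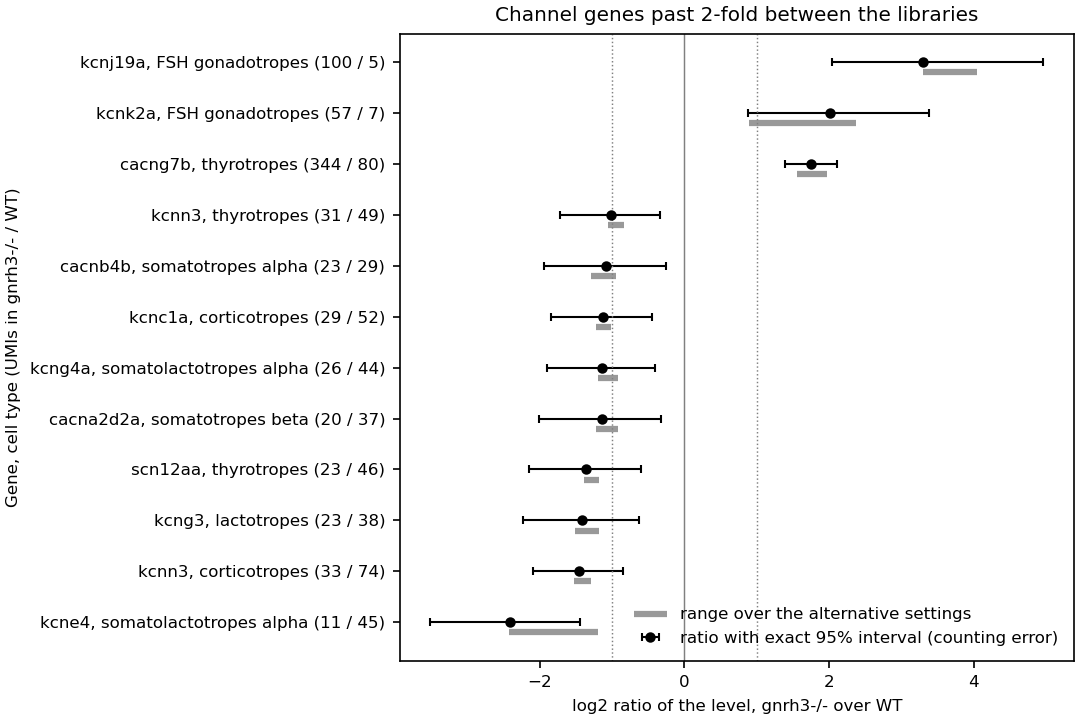
log2 ratio of the level in the gnrh3-/- library over the WT library (x axis) for 12 of the 13 combinations of channel gene and cell type (y axis) that were at least 2-fold apart, with thin bars for the 95% counting interval and grey bars for the range over the alternative settings. kcnj19a in FSH gonadotropes lies at 3.31 with alternatives from 3.30 to 4.05, while kcnk2a in FSH gonadotropes lies at 2.01 with alternatives from 0.90 to 2.38.

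The median log2 ratio was then taken over the members of each cell type. The median log2 ratio of the members was -0.36 in somatotropes alpha (all genes -0.09), where 17 of 23 were below 0, and -0.37 in corticotropes (all genes -0.09), where 15 of 22 were. It was -0.25 in somatolactotropes alpha (all genes -0.06), -0.28 in somatotropes beta (all genes -0.16), -0.32 in lactotropes (all genes -0.19) and -0.18 in thyrotropes (all genes -0.10). Melanotropes had -0.10 (all genes -0.06), with 2 of 4 members above 0. In the gonadotropes it was 0.09 (all genes 0.07) for the LH cells and 0.07 (all genes 0.02) for the FSH cells. These medians depended on the setting: with means of per-cell levels they were -0.05 (all genes 0.09) for the LH cells, 0.35 (all genes 0.01) for the FSH cells and -0.21 (all genes -0.06) for somatotropes alpha, which had -0.25 (all genes -0.09) without cells with 5 or more UMIs of a gene. In LH gonadotropes *cacna1ba* was highest, at 0.76 (0.15 to 1.41), and *scn2b* lowest, at -0.75 (-1.46 to -0.04). A change of scaling such as TMM moves the members and all genes of a type alike, so it cannot alter the difference between these medians. The cells of every large type were shallower in the *gnrh3*-/- library than in the WT library. The median depth was 11026.5 UMIs against 19038.0 in somatotropes alpha and 4230.5 against 6480.5 in corticotropes. It was 8250 against 15651.5 in the LH cells and 8509.5 against 14919 in the FSH cells. The part of depth in the medians of the log2 ratio was not tested. In summed counts, a change in the transcripts of each cell and one in the share of cells that make them cannot be told apart.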

How the data were processed

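Pituitary cells of *gnrh3*-/- and WT female zebrafish were counted in 1 droplet library of 3' ends per genotype. Reads had been aligned by the authors to GRCz11 (Ensembl 106, protein-coding genes), who deposited raw UMI counts per gene and barcode from Cell Ranger 6.0.2, with the genotype and cell type that they gave each cell after integration in Seurat 4. They removed cells with few or very many UMIs, few genes or a high mitochondrial share. Their types were used as deposited. Values of 1 of the 14 types are not reported here, nor are those of 1 member, which is still counted in the totals over members.

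Members were found by symbol in the integrated gene list. The members, the gene lists, the named genes and the comparisons were chosen with earlier results of these data known. Of the member symbols, 5 are repeats that the authors numbered, among them *cacna1db*, and each entry was kept apart. Counts were summed per type and library and divided by the UMI total of that type. Levels have exact Poisson intervals and log2 ratios exact binomial intervals at 95%. A floor of 3 UMIs was a level of 0.00570 in *gnrh3*-/- and 0.00788 in WT LH gonadotropes and of 0.0445 and 0.0413 in melanotropes. A leading type is the one with the highest level among types with at least 50 cells in each library. Cells were thinned at random to 2000 UMIs for shares of cells, with shallower cells left out. No test could be made with 1 library per genotype, and nothing says how fish differed within a pool.

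The genes named in the text are the 15 members with the most UMIs, up to 3 per leading type by mean level with at least 10 UMIs, up to 12 members past 2-fold, and the member with the most UMIs of each family. Other genes are said to be chosen after their values were seen, as are the pairs of types and the small types. The alternatives tried were means of per-cell levels, a total without hormone genes, TMM from edgeR 4.0.16, subtraction of 5% of the empty droplet profile (barcodes of 10 to 100 UMIs), removal of doublets called by Scrublet in scanpy 1.11.5 at an expected rate of 0.05, removal of cells with another hormone over 5% or under 1000 UMIs, removal of the cell with the most UMIs of a gene, and other minimums and folds. Removal of cells with 5 or more UMIs of the gene was added after seeing the data. The steps were run in Python 3.11.15 with numpy 2.4.6, scipy 1.17.1 and pandas 2.3.3, and in R 4.3.3, and were tested on simulated data.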

Additional observations from a re-analysis of the deposited data

Results flagged for a closer look

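Among the channel genes whose ratio between genotypes had opposite signs in different cell types, 2 are described here, *kcnj19a* and *kcnk2a*. Other members, such as *cacng7b* and *kcnj3a*, also had ratios of opposite signs, and not all such members are listed. The difference between types was not tested, since each type has 1 library per genotype. *kcnj19a* had a log2 ratio of 3.31 in FSH gonadotropes, from 100 UMIs in the *gnrh3*-/- library and 5 in the WT library, and of -0.63 in corticotropes, from 117 and 148 UMIs. *kcnk2a* had a log2 ratio of 2.01 in FSH gonadotropes, against -0.77 in thyrotropes, -0.53 in somatotropes alpha and -0.54 in somatotropes beta. The value of *kcnk2a* in FSH gonadotropes was 1.09 without cells that carried another hormone, and 66.7% of its *gnrh3*-/- UMIs lay in those cells. For *kcnj19a* that share was 11.0%, and the ratio without those cells was 3.32.

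Channel genes whose symbols are written in capitals are no members, and their counts lie outside the results above. The *gnrh3*-/- cells held 122 UMIs of *KCNIP1*, 114 of *CACNA2D1*, 100 of *KCNV1*, 77 of *KCNB2*, 69 of *KCNJ15*, 44 of *KCNIP4*, 35 of *CACNA2D3*, 32 of *KCNH2*, 28 of *KCNJ6* and 13 of *KCNK12*. The WT cells held 124 UMIs of *KCNIP1*, 68 of *CACNA2D1*, 47 of *KCNV1*, 42 of *KCNB2*, 46 of *KCNJ15*, 24 of *KCNIP4*, 18 of *CACNA2D3*, 24 of *KCNH2*, 13 of *KCNJ6*, 5 of *KCNK12* and 4 of *KCNT1*. In both libraries *KCNIP1* and *CACNA2D1* were highest in thyrotropes, *KCNV1* in FSH gonadotropes, *KCNJ15* in melanotropes and *KCNIP4* in somatolactotropes alpha.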

How the results depend on the processing

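No paired analysis was possible because each genotype has 1 library. The number of measured members was 134 with a minimum of 1 UMI per library and 34 with 100 UMIs, and at 100 UMIs 26 members kept 1 leading type and 8 were clear of the next. The highest over the lowest summed level was 2.86 with per-cell means, 1.89 with TMM and 3.29 after subtraction of free RNA in the *gnrh3*-/- library, and 3.25 without hormone genes and 2.09 with TMM in the WT library. Pairs of duplicated genes with the same leading type numbered 1 with per-cell means, without hormone genes, with TMM and at 100 UMIs, and 0 without the top cell of a gene and over all 13 types. Members at least 2-fold higher in the *gnrh3*-/- library numbered 7 with TMM, 1 with a minimum of 200 UMIs, 39 with 8 UMIs and 15 at 1.5-fold. Those lower numbered 0 with 200 UMIs, 50 with 8 UMIs and 27 at 1.5-fold. The median log2 ratio over the 164 combinations was -0.031 with TMM. The minimums and folds change these counts by construction, and for the other settings the cause was not tested. No share over all genes under the same setting stands beside the counts of this paragraph, so they are not read as a trait of the members. No log2 ratio of a member in a type turned its direction among those compared. The median over the members did in 3 cases: in LH gonadotropes it was 0.09 and became -0.05 with per-cell means, in FSH gonadotropes 0.07 and -0.017 at 200 UMIs, and in somatolactotropes alpha -0.25 and 0.11 at 8 UMIs. In LH gonadotropes the difference from the median of all genes, 0.02, was -0.14 there, -0.08 without doublets and -0.08 without cells with another hormone. The same difference in melanotropes, -0.04, was 0.03 without cells with another hormone. Among the main results, 23 values counted as moved and 74 as the same. Of the other values, 747 moved by less than their counting interval (counts by less than 1.5 times) and 175 by more. These 175 were 66 summed levels, 60 levels of genes, 20 medians over members, 10 log2 ratios and 19 of 20 shares of cells, which change with the thinning. Depth limits what can be said of the 28 members with no UMI and the 74 with under 20 in a library.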

Other observations

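A list of 80 other genes of membrane excitability (leak, pump, calcium store and transient receptor potential genes), chosen with earlier results known, gave 46 measured genes, of which 33 had the same leading type in both libraries, where 52.3% of all measured genes did. Corticotropes led for 10 of the 46 (21.7%, against 8.71% of all measured genes). The sodium leak channel gene *nalcn* had a level of 0.360 in *gnrh3*-/- corticotropes and 0.511 in WT corticotropes, the calcium store pump *atp2a3* 2.78 and 2.82, and the sodium pump subunits *atp1b1a* 20.6 and 18.6 and *atp1a3b* 4.45 and 4.98. The plasma membrane calcium pumps split by gene: *atp2b4* was highest in FSH gonadotropes, at 1.31 and 1.43, and *atp2b1a* in somatolactotropes alpha, at 2.64 and 3.71. *abcc8*, the sulfonylurea receptor that pairs with inward rectifiers in channels closed by ATP, was highest in lactotropes, at 0.104 and 0.0895. Of 146 combinations of these genes and cell types, 4 were at least 2-fold higher in the *gnrh3*-/- library and 3 at least 2-fold lower (1.32% and 1.8% of all genes). These genes were chosen for print after their values were seen.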
